A study of Mus musculus with 2 samples.

Results

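The replication-dependent histone genes were taken as all symbols that begin with Hist1h, Hist2h, Hist3h or Hist4h, which gave 67 of the 32285 genes in the count matrices. The rule uses the symbols alone. The genes were followed in single cells isolated from the femurs of male C57BL/6J mice that were 7 weeks old. The mice of the untreated group received nothing that the labels name, and the mice of the calcitriol-injected group received 3 intravenous injections of calcitriol (1,25-dihydroxyvitamin D3) at 2.5 μg/kg, the last of them 24 h before the femurs were taken. In both groups the epiphyses were cut off, the marrow was spun out, the bone was digested, and cells that carry CD45, a surface protein of white blood cells, were depleted on a column. The femurs of 6 mice were pooled into 1 library per group. A ratio between the groups therefore compares 2 libraries, not conditions, and no p-value was computed.

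Replication-dependent histone genes encode the proteins on which DNA is wound. H2A, H2B, H3 and H4 form the core of the nucleosome, and H1, the linker histone, binds where DNA enters and leaves it. The genes lie in clusters, most are transcribed in S phase, when the cell copies its DNA, and most of their mRNAs end in a stem-loop, which the protein SLBP binds, in place of a poly(A) tail. Erythroblasts, the nucleated precursors of red cells, divide while they fill with haemoglobin, then condense their chromatin, lose the nucleus and stop transcription. *Mki67*, which coats the chromosomes of dividing cells, and *Top2a*, a topoisomerase that untangles replicated DNA, were taken as reference genes of cycling cells. The library kit primes at poly(A) stretches and counts each captured molecule once, as a unique molecular identifier (UMI), at its 3′ end. Levels are therefore given as counts per 1000000 UMIs (CPM) with no division by length, and they describe the histone mRNA molecules that this priming could catch.

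The untreated library held 6076 barcodes and 70266983 UMIs and the calcitriol library 4562 barcodes and 60392557 UMIs. Haemoglobin took 41.2% and 10.6% of these UMIs, and 8 barcodes occurred in both libraries. A barcode was called erythroid at a haemoglobin share of at least 10% or with UMIs of at least 4 of 10 early erythroid markers, which gave 3578 untreated and 851 calcitriol barcodes. Of the 22 erythroid markers listed, 19 were at least 2-fold higher there than in the other barcodes. The list includes the genes that made the call, so this is in part set by it. Skeletal and vascular cells were called by UMIs of their own markers in 7 classes, with 1424 untreated and 2118 calcitriol cells: osteocyte, osteoblast, chondrocyte, mesenchymal (*Ly6a* and *Pdgfra*), tendon, endothelial, and smooth muscle and pericyte. In each class, 7 or more of the markers listed (osteocyte: all 5) were at least 2-fold higher than in the rest. The same markers had called the classes, so they check the calls only in part. The chondrocyte class was led by *Cytl1*, *Msmp* and *Serpina1b*. Brackets hold exact 95% intervals (Poisson for levels, Clopper-Pearson for shares and, for ratios, the binomial conditional on the sum of both counts), which cover counting error only.

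Of the 67 members, 54 lie on chromosome 13 of GRCm38 between bases 21715763 and 23934851, 10 on chromosome 3, 2 on chromosome 11 and 1 on chromosome 6. They comprise 6 H1, 18 H2A, 18 H2B, 12 H3 and 13 H4 genes. UMIs were found for 65 members, and *Hist1h2aa* and *Hist1h2ba* had none in either library. The stem-loop that defines most of these mRNAs was sought in the GENCODE M21 transcripts by its consensus of 16 bases, stems of 6 bases around a loop of 4. On the strand of the gene it was present in 46 of the 67 members (68.7%) and in 68 of all 21901 protein-coding genes (0.31%). The same 16 bases were shared by 26 members of the H1, H2A, H2B and H3 families, and another version by 7 H4 genes. The sites of 7 members with many UMIs are given here 5′ to 3′ on the strand of the gene, with the stem-loop in capitals, because they are the shared mark of the family.
Hist1h1e, chr13:23621777-23621802, minus strand: ccaaaGGCTCTTTTCAGAGCCaccca
Hist1h1c, chr13:23739507-23739532, plus strand: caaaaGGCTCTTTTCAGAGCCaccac
Hist1h1d, chr13:23555782-23555807, plus strand: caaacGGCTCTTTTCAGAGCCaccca
Hist1h2ap, chr13:21833026-21833049, minus strand: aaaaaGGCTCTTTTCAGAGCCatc
Hist1h2ae, chr13:23570663-23570688, minus strand: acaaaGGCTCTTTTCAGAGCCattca
Hist1h3c, chr13:23745042-23745067, minus strand: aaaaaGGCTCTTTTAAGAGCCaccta
Hist1h4d, chr13:23581945-23581970, plus strand: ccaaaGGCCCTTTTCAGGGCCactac
*Hist1h1e*, *Hist1h1c*, *Hist1h1d*, *Hist1h2ap* and *Hist1h2ae* carry the same 16 capitals, and *Hist1h3c* and *Hist1h4d* differ from them within the stem-loop. All of these sites lie in the single annotated exon of their gene, after the stop codon.

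The annotated ends of the members differed in a way that bears on a 3′ count. In 23 members the annotated transcript runs on for more than 100 bases past the stem-loop, and these members held 48.4% of all histone UMIs. In 20 members it ends within 50 bases of the stem-loop, as for *Hist1h2ap*, and these held 14.7%. The 21 members with no stem-loop match held 31.5%, and for 15 of them the annotation ends fewer than 10 bases after the coding sequence, so that a stem-loop further on would not be seen. *Hist1h1b*, an H1 gene with 36211 UMIs (chr13:21779883-21780625, minus strand), is one of these: its annotation ends at the stop codon. *Hist1h2bc*, an H2B gene (chr13:23684199-23692908, plus strand), is annotated with 2 exons and no stem-loop. Members also resemble each other: 27 of them share more than 50% of their 90-base windows with another gene and held 15.6% of the UMIs. *Hist1h2ap* shares 92.4% of its windows, most with *Hist1h2ao*, so that the counts of these 2 genes cannot be assigned with certainty.

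The members also share promoter letters. Of 60 members that could be matched to a RefSeq promoter of GRCm38.p6 (250 bases before to 50 after the start), 51 (85.0%) held CCAAT on either strand, against 37.9% of all 27025 promoters. TATAAA was held by 34 members (56.7%) against 14.2%, and both by 28 (46.7%) against 5.55%. The letters of these motifs do not overlap, and a match is a description, not a site. The 120 bases before the start are shown for 4 H1 genes, with CCAAT (or ATTGG on the other strand) and TATAAA in capitals.
Hist1h1b, chr13:21780626-21780745, minus strand: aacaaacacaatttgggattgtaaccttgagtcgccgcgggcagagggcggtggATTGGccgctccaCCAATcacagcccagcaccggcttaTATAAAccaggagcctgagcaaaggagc
Hist1h1e, chr13:23622559-23622678, minus strand: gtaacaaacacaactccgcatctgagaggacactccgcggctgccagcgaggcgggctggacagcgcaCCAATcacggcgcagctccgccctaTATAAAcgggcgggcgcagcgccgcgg
Hist1h1a, chr13:23763548-23763667, plus strand: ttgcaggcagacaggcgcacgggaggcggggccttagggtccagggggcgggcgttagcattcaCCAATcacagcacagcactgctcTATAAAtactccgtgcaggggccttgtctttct
Hist1h1c, chr13:23738687-23738806, plus strand: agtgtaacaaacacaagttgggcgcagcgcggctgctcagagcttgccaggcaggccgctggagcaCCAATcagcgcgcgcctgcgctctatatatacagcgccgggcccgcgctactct
Each of the 4 holds CCAAT, and *Hist1h1c* lacks the letters TATAAA.

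Histone mRNA was concentrated in erythroid barcodes. Summed over the members it reached 4424 CPM (4403 to 4446) in untreated erythroid barcodes and 342.0 CPM (334.1 to 350.0) in the untreated skeletal and vascular cells. In the calcitriol library the values were 2354 CPM (2319 to 2390) and 379.4 CPM (373.0 to 386.0). With both libraries summed, 56 of the 59 members with at least 20 UMIs were at least 2-fold higher in erythroid barcodes, as were 6.3% of all genes tested. The median log2 ratio, with counts below 3 set to 3, was 4.94 for these members and -3.46 for all genes, most of which were lower in barcodes filled with haemoglobin. *Hist1h2bl*, an H2B gene, had 174 UMIs in erythroid barcodes and 0 in the class cells, at least 72.7-fold higher against a floor of 3 counts. Among members found in both, the largest ratios were those of *Hist3h2ba*, also of the H2B family, with a log2 ratio of 8.58 (7.70 to 9.64), *Hist1h2bn*, another H2B gene with 7.59 (6.75 to 8.59), and *Hist1h2af*, an H2A gene with 6.82 (6.10 to 7.67). The opposite end held *Hist2h3c2*, an H3 gene with -2.24 (-3.26 to -1.35), which was the only member at least 2-fold lower (84.5% of all genes were), *Hist1h2bc* with 0.01 (-0.05 to 0.06) and *Hist2h3c1*, another H3 gene, with 0.05 (-0.37 to 0.47).

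Within the erythroid barcodes, the histone level followed the haemoglobin share. In the untreated library it was 2493 CPM in 36 barcodes under a share of 10%, 12160 in 126 at 10 to 25%, 16240 in 267 at 25 to 50%, 10830 in 747 at 50 to 75%, 1434 in 803 at 75 to 90% and 37.3 in 1599 at 90% or more. The calcitriol library gave 9675 CPM in 9 barcodes, 9973 in 20, 16940 in 39, 7272 in 116, 1121 in 132 and 44.0 in 535 barcodes for the same order of bins. As CPM of all UMIs, the level was highest at a share of 25 to 50% in both libraries, and in both it dropped steeply from a share of 75% on. Per UMIs other than haemoglobin, the levels from 10 to 25% on were 14720, 27410, 29180, 7627 and 807.2 CPM in the untreated library and 12010, 27880, 20930, 5945 and 828.1 CPM in the calcitriol library, so that the highest bin was then 50 to 75% in the untreated library and 25 to 50% in the calcitriol library. From 10 to 75% to 90% or more, the log2 ratio of the histone level was -8.35 (-8.46 to -8.23) in the untreated library and -7.78 (-7.99 to -7.57) in the calcitriol library. Part of this fall is set by haemoglobin in the denominator: with haemoglobin and mitochondrial genes left out of the totals the ratio was -5.01 and -4.71.

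**Figure D1:**
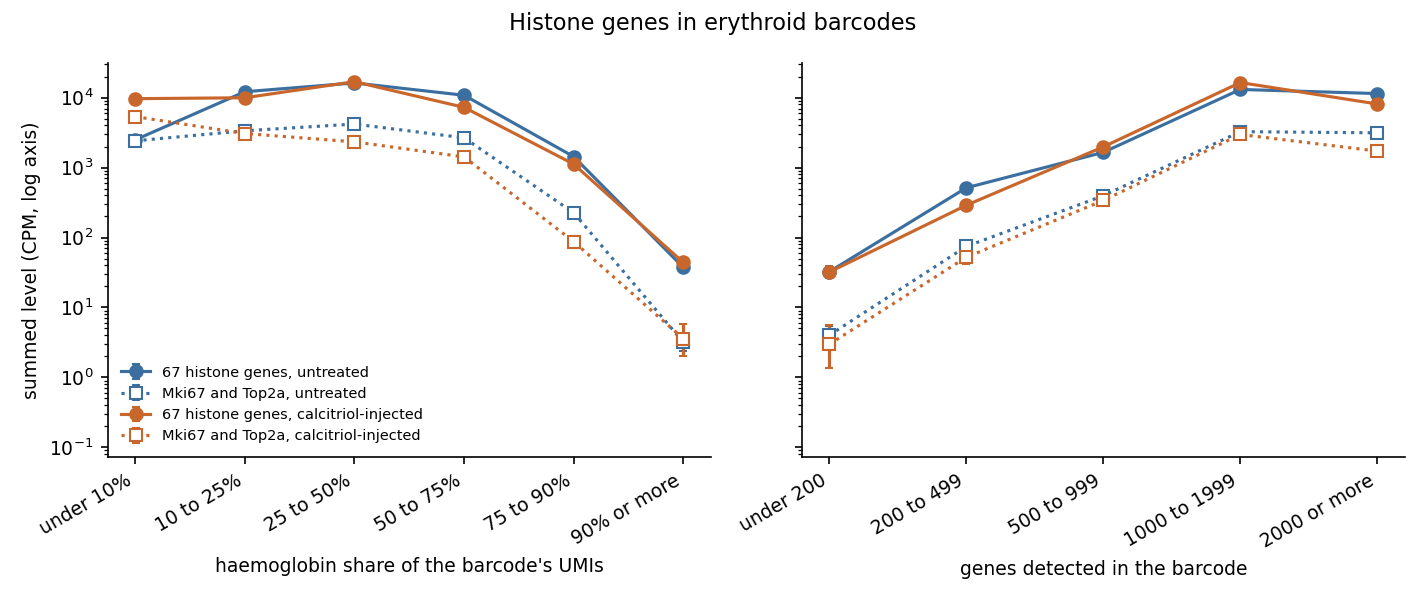
Summed level of the 67 histone genes (filled circles) and of Mki67 and Top2a (open squares) in CPM of all UMIs, on a log axis, in erythroid barcodes by haemoglobin share (left) and by genes detected (right). Blue is the untreated and orange the calcitriol-injected library, bars are exact 95% Poisson intervals, and the histone level is highest at a share of 25 to 50% in both libraries (16240 and 16940 CPM) and lowest at 90% or more (37.3 and 44.0 CPM).

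By the number of genes in a barcode, the histone level rose from 32.4 CPM under 200 genes over 513.7 at 200 to under 500 and 1652 at 500 to under 1000 to 13110 at 1000 to under 2000 and 11450 at 2000 or more genes in the untreated library. The calcitriol values were 32.0, 289.2, 1980, 16460 and 8114 CPM. The 2 measures belong together, since barcodes of high haemoglobin share held few genes. In the joint bin with a share of 50 to 75% and 1000 to under 2000 genes, all 516 untreated and all 41 calcitriol barcodes held a histone UMI. The histone share of a barcode's UMIs there ran from 0.0216% to 5.47% with a median of 1.35% in the untreated library and from 0.0107% to 3.94% with a median of 0.603% in the calcitriol library. Cells of like haemoglobin share and gene number thus differed widely in histone content.

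Detection followed the level. A UMI of any member was found in 64.3% of untreated (62.7 to 65.9) and 46.5% of calcitriol erythroid barcodes (43.1 to 49.95). At a share of 50 to 75% it was 99.3% and 97.4%, at 75 to 90% it was 97.3% and 82.6%, and at 90% or more it was 23.0% and 21.3%. Barcodes with a share of 90% or more and fewer than 200 genes should hold red cells without a nucleus. For comparison, these red-cell barcodes had a histone UMI in 19.8% (17.6 to 22.2) and 16.4% (12.9 to 20.4). Their median depth was 9210 and 7778.5 UMIs, against 9832.5 and 8839 in all erythroid barcodes. Whether the histone UMIs of these barcodes were free RNA or RNA of the cells was not tested. These barcodes are 1236 of the 1599 untreated and 402 of the 535 calcitriol barcodes of that bin, so the shares of the whole bin are not independent of them. The other 363 and 133 barcodes of the bin, with at least 200 genes, had a histone UMI in 33.6% (28.8 to 38.7) and 36.1% (27.95 to 44.9).

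*Mki67* and *Top2a* fell further than the histone genes. From a share of 10 to 75% to one of 75 to 90%, the log2 ratio was -3.08 (-3.11 to -3.05) for the histone genes and -3.76 (-3.83 to -3.70) for the sum of *Mki67* and *Top2a* in the untreated library. In the calcitriol library the ratios were -3.10 (-3.18 to -3.02) and -4.33 (-4.62 to -4.05), and the intervals of the 2 sums do not overlap in either library. Histone UMIs per UMI of the reference genes were 3.61, 3.87 and 4.06 at shares of 10 to 25%, 25 to 50% and 50 to 75% in the untreated library, then 6.35 and 11.7 at 75 to 90% and 90% or more. In the same bins of the calcitriol library they were 3.25, 7.26, 5.11, 12.8 and 12.3, the last from 16 reference UMIs. The course up to 75% thus differed between the libraries. At 75 to 90%, 300 untreated barcodes with no UMI of *Mki67* or *Top2a* still held 1018 CPM of histone mRNA (982.1 to 1055), and the 503 with such a UMI held 1672 CPM (1637 to 1708). In the calcitriol library these values were 953.7 CPM (882.3 to 1029) in 82 and 1334 CPM (1239 to 1435) in 50 barcodes.

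The members peaked together but not all in the same bin. Of the 50 members with at least 100 UMIs in the 5 untreated bins from 10% on, 41 were highest at 25 to 50%, as were 22.2% of all genes. At 50 to 75% it was 5 members (*Hist1h2ac*, *Hist1h2bc*, *Hist1h2bn*, *Hist3h2a* and *Hist3h2ba*) and 5.74% of all genes, and the remaining 4 were highest at 10 to 25%. In the calcitriol library 20 of 24 members were highest at 25 to 50%, as were 427 of all 1376 genes with enough UMIs there. These bins depend on the haemoglobin in the totals. With haemoglobin left out of the totals, an alternative chosen after seeing the data, 12 of the 50 untreated members were highest at 25 to 50% and 38 at 50 to 75%, against 27.5% and 19.2% of all genes. In the calcitriol library 18 of the 24 members were then highest at 25 to 50%, against 333 of 1376 genes. *Hist1h1b*, a linker histone gene, led all members in the untreated library with 3510, 3726 and 1844 CPM in the bins from 10 to 75%. At 75 to 90% it had 178.4 CPM, and the other H1 genes *Hist1h1e* and *Hist1h1c* stood above it with 378.8 and 297.4 CPM. At 90% or more, *Hist1h2bc* and *Hist1h1c* led with 13.3 and 5.03 CPM in the untreated library and with 16.96 and 16.1 CPM in the calcitriol library.

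The make-up by family also differed between bins. In the untreated library H1 genes held 57.9% of the histone UMIs at 10 to 25%, 52.7% at 25 to 50%, 42.5% at 50 to 75%, 64.7% at 75 to 90% and 26.8% (23.3 to 30.6) at 90% or more. The H2B share in the same bins was 6.03%, 8.24%, 12.2%, 12.8% and 46.9% (42.8 to 51.1). The barcodes at 90% or more had 586 histone UMIs in all, 326 of them in the red-cell barcodes. Of the 1236 red-cell barcodes, 101 (8.17%) held a UMI of *Hist1h2bc*. H3 stayed between 3.62% and 8.81% in each untreated bin of the figure on families, and H4 between 5.67% and 11.8%.

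**Figure D2:**
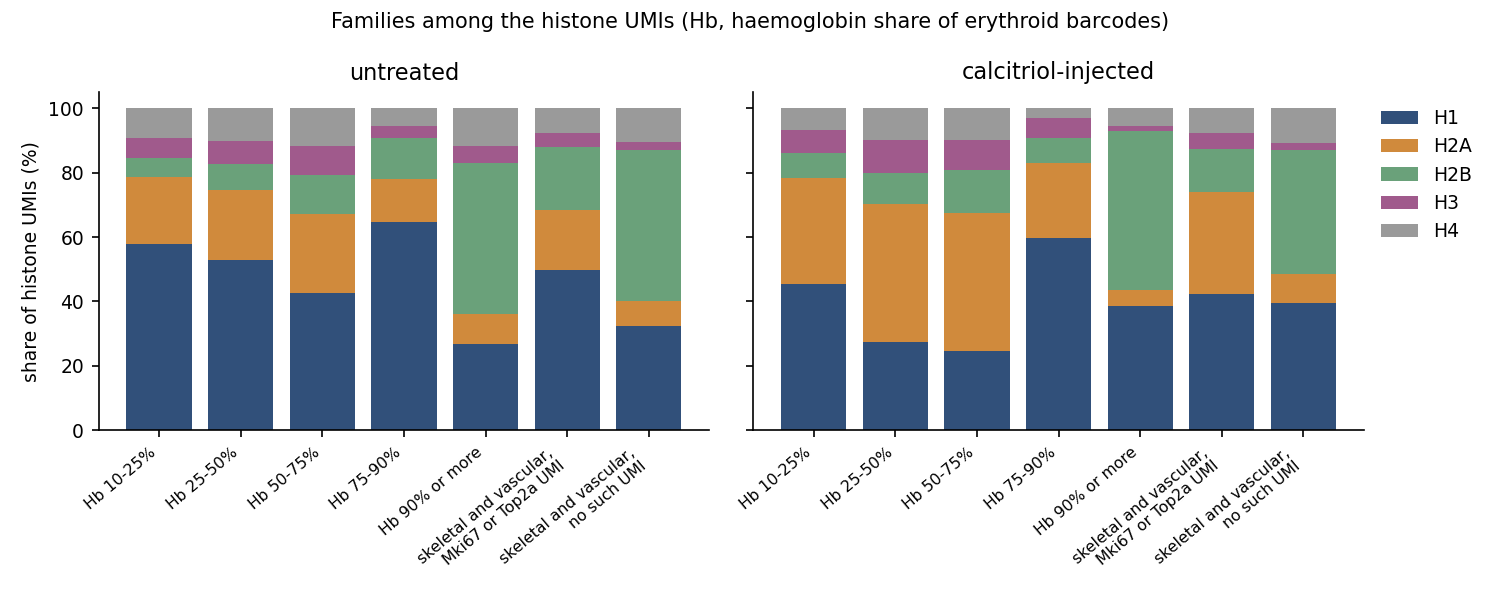
Share of the histone UMIs held by each histone family, in percent, in erythroid barcodes by haemoglobin share and in skeletal and vascular cells with and without a UMI of Mki67 or Top2a, for the untreated (left) and the calcitriol-injected library (right). H1 takes 52.7% of the untreated and 27.5% of the calcitriol histone UMIs at a share of 25 to 50%, H2A takes 21.7% and 42.6% there, and H2B takes the largest part at 90% or more in both libraries.

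The summed histone level was lower in the calcitriol-injected erythroid barcodes, with a log2 ratio to untreated of -0.91 (-0.93 to -0.89). The median over the 8768 genes with at least 20 UMIs in these barcodes was -0.67, and *Mki67* and *Top2a* together had -1.36 (-1.41 to -1.31). At least 2-fold lower were 25 of 58 members, against 33.6% of all genes, and no member was at least 2-fold higher, against 10.9%. The other 9 members had fewer than 20 UMIs. The libraries also differed in the barcodes they held, since 535 of 851 calcitriol and 1599 of 3578 untreated erythroid barcodes had a haemoglobin share of 90% or more. Within bins it was 1.96 (1.82 to 2.09) under 10%, -0.29 (-0.37 to -0.20) at 10 to 25%, 0.06 (0.02 to 0.10) at 25 to 50%, -0.58 (-0.61 to -0.54) at 50 to 75% and -0.36 (-0.44 to -0.27) at 75 to 90%. At 90% or more the levels of 37.3 and 44.0 CPM had intervals that overlap. By gene number it was -0.83 (-0.96 to -0.70) at 200 to under 500 genes, 0.26 (0.20 to 0.32) at 500 to under 1000, 0.33 (0.30 to 0.36) at 1000 to under 2000 and -0.50 (-0.55 to -0.45) at 2000 or more. The direction thus changed with the bin. Few barcodes set the first bins of the calcitriol library, where 3 barcodes held 75.2% of the histone UMIs under 10% and 78.3% at 10 to 25%, against 28.1% under 10% in the untreated library. The 9 calcitriol barcodes under 10% also held fewer genes, with a median of 599 against 3258.

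A like set of barcodes, with a haemoglobin share of 25 to 75% and at least 1000 genes, held 755 untreated and 72 calcitriol barcodes. This choice was made after the bins had been seen. The summed histone level was 13650 CPM (13580 to 13730) in the untreated library and 14040 CPM (13800 to 14290) in the calcitriol barcodes, a log2 ratio of 0.04 (0.01 to 0.07). *Mki67* and *Top2a* had -0.50 (-0.57 to -0.44) and the median over 7163 genes was 0.17, that over 58 members -0.12. The barcodes behind these totals differed. The median barcode held 165 histone UMIs (quartiles 78.5 and 241.5) in the untreated library and 114.5 (13.5 and 305.75) in the calcitriol library, and a reference UMI was found in 98.8% and 80.6% of the barcodes.

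The families within this total differed between the libraries. The H1 genes were lower in the calcitriol barcodes, with 3363 against 6194 CPM and a log2 ratio of -0.88 (-0.93 to -0.83). The H2A genes summed were higher, with 6151 against 3295 CPM and 0.90 (0.86 to 0.94). *Hist1h2ap*, *Hist1h2ae* and *Hist1h2ab* held 2580, 1795 and 614 of the 5607 calcitriol H2A UMIs. In the untreated barcodes they held 10222, 9840 and 3526 of 31052, so the H2A sum rests mostly on these genes. H2B, H3 and H4 lay between, with 0.19 (0.12 to 0.27), 0.30 (0.21 to 0.38) and -0.10 (-0.18 to -0.02). H1 made up 45.4% of the untreated and 23.95% of the calcitriol histone UMIs, and H2A 24.1% and 43.8%.

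The same exchange showed in single barcodes. Among barcodes with at least 20 histone UMIs (680 untreated and 50 calcitriol), the median H1 share of a barcode's histone UMIs was 44.0% in the untreated library and 22.2% in the calcitriol library. The quartiles were 34.2% and 56.0% in the untreated library and 15.6% and 30.3% in the calcitriol library. The H2A share had medians of 23.3% and 42.3%, with quartiles of 16.95% and 29.0% and of 32.0% and 50.7%. For both families, the upper quartile of the library with the lower share lay below the lower quartile of the other library. The 3 barcodes with the most histone UMIs held 14.2% of them in the calcitriol and 1.40% in the untreated set.

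The H1 members with at least 20 UMIs went the way of their family, while the H2A sum rested mostly on few members. *Hist1h1e*, a linker histone gene, had 1685 CPM in untreated and 584.7 CPM in calcitriol barcodes of this set, a log2 ratio of -1.53 (-1.65 to -1.40), and was the only member at least 2-fold lower (3.67% of all genes were, with counts below 3 set to 3). *Hist1h1b* had 2612 and 1506 CPM (-0.79, -0.87 to -0.72), *Hist1h1d* 476.5 and 274.3 CPM (-0.80, -0.99 to -0.61), *Hist1h1a* 384.1 and 264.4 CPM (-0.54, -0.73 to -0.35) and *Hist1h1c* 1035 and 733.9 CPM (-0.50, -0.61 to -0.38). All 5 of these linker histone genes were lower in the calcitriol library. The sixth, *Hist1h1t*, which is known as the H1 gene of the testis, had fewer than 20 UMIs in all.

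Among the core histones, *Hist1h2ap*, an H2A gene, stood first in the calcitriol barcodes with 2830 against 1085 CPM, a log2 ratio of 1.38 (1.32 to 1.45). The H2A genes *Hist1h2ae* and *Hist1h2ab* were higher too, with 1969 against 1044 CPM (0.92, 0.84 to 0.99) and 673.6 against 374.2 CPM (0.85, 0.72 to 0.97). *Hist2h2ac*, an H2A gene of the cluster on chromosome 3, went the other way with 229.3 against 290.1 CPM (-0.34, -0.55 to -0.14). *Hist1h2bc* was higher, with 579.2 against 319.4 CPM (0.86, 0.72 to 0.99), and *Hist1h4d*, an H4 gene, was close to even with 840.3 against 962.4 CPM (-0.20, -0.30 to -0.09). At least 2-fold higher were *Hist1h2ap*, the H2B gene *Hist1h2bp* and the H4 genes *Hist1h4m* and *Hist1h4n*, which is 4 of 58 members, against 19.9% of all genes. *Hist1h4m* (1.24, 0.15 to 2.21) and *Hist1h4n* (1.08, -0.07 to 2.08) had only 11 and 10 calcitriol UMIs, and at the other end *Hist2h2ab*, an H2A gene, had 2 (-1.44, -4.52 to 0.48).

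**Figure D3:**
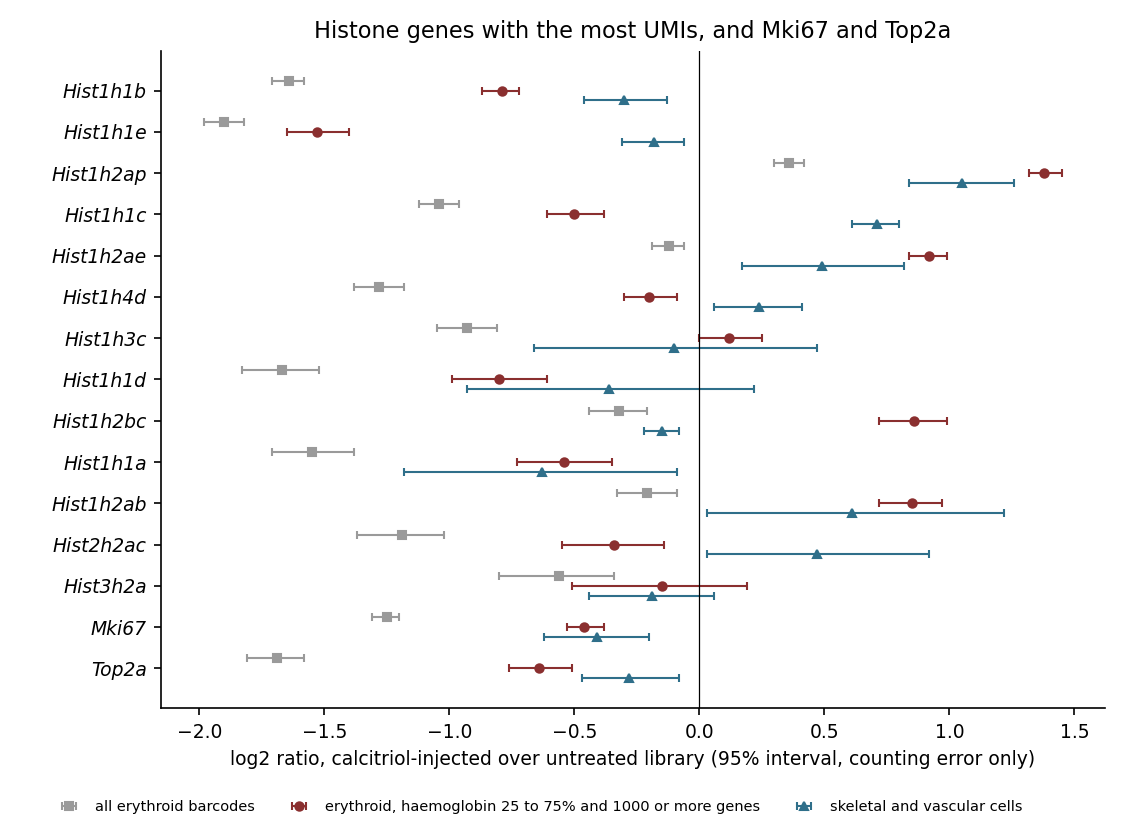
Log2 ratio of the calcitriol-injected over the untreated library, with exact 95% intervals for counting error, for the histone genes with the most UMIs and for Mki67 and Top2a, in all erythroid barcodes (grey squares), in erythroid barcodes with a haemoglobin share of 25 to 75% and at least 1000 genes (red circles) and in skeletal and vascular cells (blue triangles). In the red circles the H1 genes lie left of 0, from -1.53 for Hist1h1e to -0.50 for Hist1h1c, and Hist1h2ap lies furthest to the right at 1.38.

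The exchange between H1 and H2A was set beside properties of the annotated transcripts. Across the 58 members, the log2 ratio in this set had a Spearman correlation of 0.08 with the longest run of A in the mRNA, of 0.11 with mRNA length, of 0.27 with the share of windows that another gene also holds and of -0.14 with the untreated level. Members share libraries and sequence, so these values are a description. At a share of 75 to 90% the H1 ratio was -0.47 (-0.57 to -0.37) and the H2A ratio 0.46 (0.29 to 0.64), the same directions, while H2B had -1.12 (-1.42 to -0.84) and H4 -1.22 (-1.70 to -0.78). What lies behind the exchange was not tested.

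Skeletal and vascular cells held far less histone mRNA, and its make-up was different. *Hist1h2bc* led these cells with 126.0 CPM in the untreated library and 113.7 CPM in the calcitriol library, followed by *Hist1h1c* with 56.4 and 92.0 CPM and *Hist1h1e* with 42.4 and 37.3 CPM. The next were *Hist1h1b* with 24.4 and 19.9 CPM, *Hist1h4d* with 19.2 and 22.6 CPM, *Hist1h2ap* with 11.8 and 24.4 CPM, *Hist3h2a*, an H2A gene of chromosome 11, with 10.96 and 9.62 CPM and *Hist1h2ae* with 5.32 and 7.47 CPM. The 4 members with the most UMIs held 72.9% and 70.5% of the histone UMIs here, against 49.4% and 49.6% in erythroid barcodes.

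The order of the classes by summed level in the untreated library was chondrocyte with 624.5 CPM (603.5 to 645.9), endothelial with 338.0 (313.7 to 363.6), smooth muscle and pericyte with 298.0 (247.7 to 355.5), osteocyte with 281.6 (243.6 to 323.8), tendon with 253.2 (232.1 to 275.7), mesenchymal with 233.7 (220.2 to 247.9) and osteoblast with 207.1 (195.3 to 219.4). Chondrocyte cells stood clear of all other classes, and the intervals of each pair of neighbours from endothelial to mesenchymal cells overlap. In the calcitriol library it was osteocyte with 604.7 (563.2 to 648.6), smooth muscle and pericyte with 502.6 (449.3 to 560.5), chondrocyte with 481.0 (469.9 to 492.2), endothelial with 323.4 (301.6 to 346.4), osteoblast with 266.5 (252.5 to 281.2), mesenchymal with 264.6 (253.6 to 276.0) and tendon with 241.7 (219.1 to 266.1). Of the neighbours here, smooth muscle and pericyte cells overlap with chondrocyte cells, and osteoblast, mesenchymal and tendon cells overlap in turn. The order also depends on how cells are weighted: as a mean over cells, osteocyte and chondrocyte cells had 475.8 and 492.4 CPM in the untreated and 515.0 and 406.0 CPM in the calcitriol library, a log2 ratio of 0.11 in osteocyte cells. The order from summed counts thus differed between the libraries, and the classes that moved up most were the smallest, with 36 and 80 osteocyte cells and 36 and 56 smooth muscle and pericyte cells.

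A histone UMI was found in 80.1% of untreated (77.9 to 82.1) and 82.4% of calcitriol class cells (80.7 to 84.0), at median depths of 12396.5 and 13606.5 UMIs. The red-cell barcodes, at 9210 and 7778.5 UMIs, had 19.8% and 16.4%. The mean was 5.06 and 6.16 histone UMIs per class cell against 0.264 and 0.231 per red-cell barcode. For *Hist1h2bc* the share was 55.3% (52.6 to 57.9) and 51.0% (48.8 to 53.1) of class cells against 8.17% and 7.96% of red-cell barcodes, and for *Hist1h1c* 24.4% and 38.0% against 1.94% and 5.22%. Chondrocyte cells held *Hist1h2bc* most often (71.7% and 63.8%) and endothelial cells least often (37.2% and 35.1%). Their median depths differed, with 16535 and 16787 UMIs in chondrocyte and 8197 and 9376.5 UMIs in endothelial cells. By level, endothelial cells were not the lowest. They had 95.55 CPM against 95.02 in untreated osteoblast cells, and 76.98 CPM against 56.0 in calcitriol smooth muscle and pericyte cells. For *Hist1h1b* the share in class cells was only 2.81% (2.01 to 3.81) and 1.94% (1.39 to 2.62), against 1.29% (0.742 to 2.09) of red-cell barcodes in the untreated library and 0 of 402 in the calcitriol library (a count of 0 here allows up to 0.913%). In the untreated library the intervals of class cells and red-cell barcodes overlap.

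Erythroid mRNA could reach other droplets. If the haemoglobin UMIs of the class cells had brought histone UMIs along at the ratio seen in erythroid barcodes, they would account for 8.69 CPM of the untreated and 1.18 CPM of the calcitriol level. The summed levels were 342.0 and 379.4 CPM. The values of 8.69 and 1.18 CPM hold for the sum of the members alone. They use the ratio of all erythroid barcodes summed, which differs by haemoglobin share. In the untreated library, 16240 CPM of histone mRNA stood beside 407400 CPM of haemoglobin at 25 to 50%. At 90% or more it was 37.3 beside 953800 CPM, so the values depend on which erythroid barcodes set the ratio. *Hist1h1b* had 857.8 and 274.3 CPM in erythroid barcodes, and 1.65 and 0.988 CPM in class cells with no *Mki67* or *Top2a* UMI. How much of such low levels of single members was carried over was not tested.

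The members differed in how far they went with *Mki67* and *Top2a*. Of the class cells, 103 untreated and 136 calcitriol cells held a UMI of *Mki67* or *Top2a*, and their summed histone level was 961.9 CPM (921.6 to 1004) and 1086 CPM (1049 to 1124). The 1321 and 1982 cells without one had 268.7 CPM (261.3 to 276.2) and 311.7 CPM (305.5 to 317.9). The log2 ratio between them was 1.84 (1.77 to 1.91) and 1.80 (1.74 to 1.86). Of the cells with such a UMI, 3 held 36.1% and 34.5% of the histone UMIs, and the median cell held 5 and 4.

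Most UMIs of *Hist1h1b* lay in cells with a reference UMI, at 216.7 against 1.65 CPM in the untreated (log2 ratio 7.04, 6.52 to 7.61) and 216.6 against 0.988 CPM in the calcitriol library (7.78, 7.26 to 8.35). Of the cells that held it, 19 of 40 untreated and 19 of 41 calcitriol cells had a reference UMI, and the remaining cells held 31 of its UMIs in each library. *Hist1h3c*, an H3 gene, had 6.47 (5.01 to 8.41) and 7.86 (6.25 to 10.18), *Hist1h2ap* 5.55 (5.05 to 6.09) and 4.82 (4.6 to 5.05) and *Hist1h2ae* 4.73 (4.09 to 5.42) and 5.13 (4.70 to 5.57). *Hist1h1e* had 2.55 (2.36 to 2.75) and 2.07 (1.90 to 2.25) and *Hist1h4d* 1.64 (1.31 to 1.96) and 1.41 (1.15 to 1.67). *Hist1h1c* had 0.34 (0.09 to 0.59) and 0.13 (-0.04 to 0.30), *Hist1h2bc* 0.47 (0.31 to 0.63) and 0.02 (-0.14 to 0.18) and *Hist3h2a* 0.28 (-0.34 to 0.85) and 0.89 (0.43 to 1.33). For *Hist1h1c* and *Hist1h2bc* the levels with and without a reference UMI thus lay close, while *Hist3h2a* had 16.61 against 8.954 CPM in the calcitriol library.

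**Figure D4:**
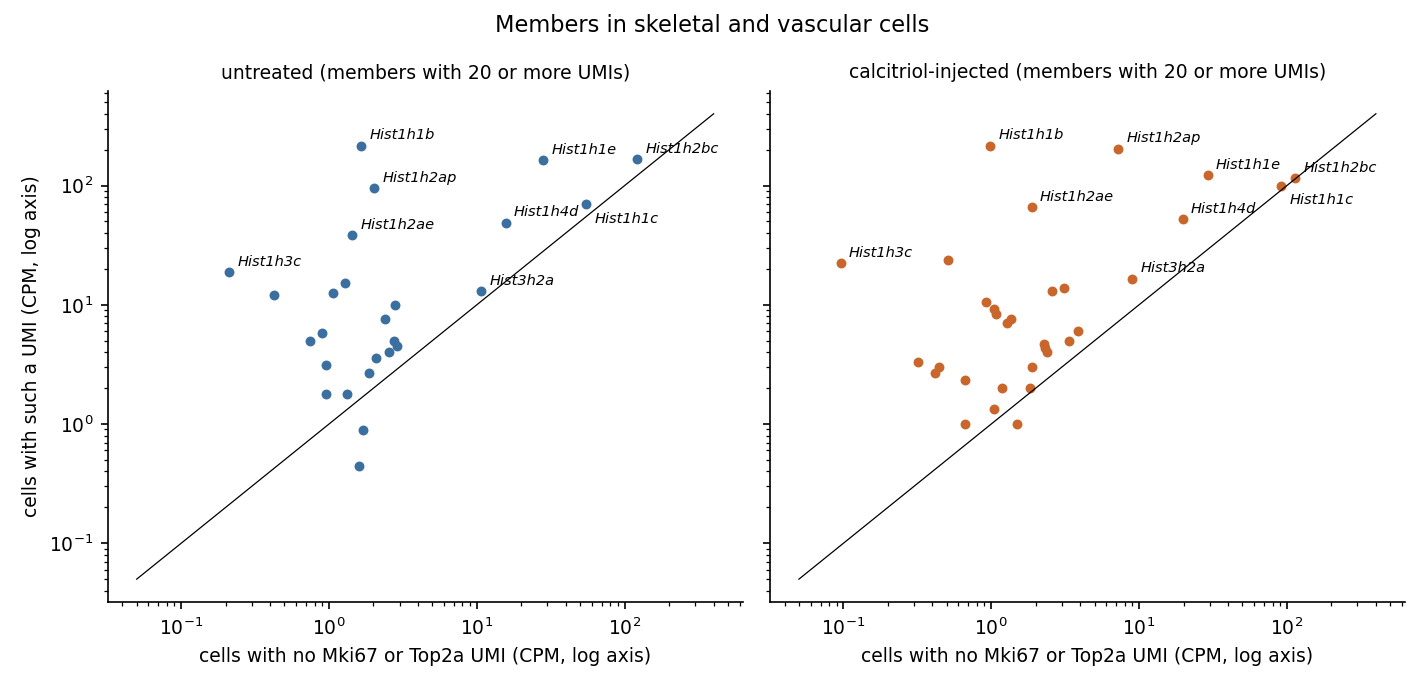
Level of each member with at least 20 UMIs in CPM, on log axes, in skeletal and vascular cells with a Mki67 or Top2a UMI (vertical) against those without (horizontal), for the untreated (left) and the calcitriol-injected library (right), with members at 0 in either left out. The line marks equal levels: Hist1h1b and Hist1h3c lie far above it (log2 ratios of 7.04 and 6.47 in the untreated library), and Hist1h2bc and Hist1h1c lie close to it (0.47 and 0.34).

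The family make-up moved in the same way. In class cells with a reference UMI, H1 held 49.7% and H2B 19.8% of the untreated histone UMIs, and in cells without one 32.3% and 46.9%. The calcitriol library gave 42.3% and 13.3% with, and 39.6% and 38.5% without. The H2A share rose from 7.77% without to 18.5% with a reference UMI in the untreated library and from 8.89% to 31.7% in the calcitriol library.

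Between the libraries, the summed histone level of the class cells had a log2 ratio of 0.15 (0.11 to 0.19), calcitriol over untreated. *Mki67* and *Top2a* had -0.34 (-0.48 to -0.20) and the median over 15007 genes was -0.12. With clusters rebuilt by the study's workflow in place of the marker gates the ratio was -0.05, so that its direction rested on how the cells were grouped. In cells with no reference UMI it was 0.21 (0.17 to 0.26). The libraries also differed in the classes they held. Chondrocyte cells, the class with the highest untreated level (624.5 CPM), were 304 of 1424 untreated and 815 of 2118 calcitriol class cells. Pooled values thus also compare different mixes of classes. Of the 37 members with at least 20 UMIs, *Hist1h2ap*, *Hist1h2br*, *Hist1h3f* and *Hist2h2aa1* were at least 2-fold higher, against 3.86% of all genes, and *Hist1h3d* was at least 2-fold lower, against 4.47%. *Hist2h2aa1*, an H2A gene, had 3.49 against 0.854 CPM (2.03, 1.31 to 2.83), and *Hist1h3d*, an H3 gene, 0.349 against 1.04 CPM (-1.58, -2.73 to -0.50). Among the members of higher level, *Hist1h2ap* had 1.05 (0.84 to 1.26) and *Hist1h1c* 0.71 (0.61 to 0.80), while *Hist1h1b* had -0.30 (-0.46 to -0.13). As in the erythroid set, the summed H2A level was higher (0.56, 0.44 to 0.69). Unlike there, the pooled H1 level was higher too (0.25, 0.19 to 0.32), with *Hist1h1c* higher and *Hist1h1b* lower. By class, H1 was lower in chondrocyte (225.1 against 314.2 CPM) and endothelial cells (94.84 against 113.9 CPM) and higher in the other classes. H2A was lower in chondrocyte cells (51.27 against 58.79 CPM) and higher in the others. The difference between erythroid and class cells was not tested.

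The classes did not move together. The log2 ratio was 1.10 (0.88 to 1.34) in osteocyte, 0.36 (0.25 to 0.48) in osteoblast, -0.38 (-0.44 to -0.32) in chondrocyte, 0.18 (0.07 to 0.28) in mesenchymal, -0.07 (-0.26 to 0.12) in tendon, -0.06 (-0.21 to 0.08) in endothelial and 0.75 (0.45 to 1.07) in smooth muscle and pericyte cells. Few cells set several of these values. In osteocyte cells of the calcitriol library, 3 cells held 54.4% of the histone UMIs, and without the 3 richest cells of each library the ratio was 0.15. In smooth muscle and pericyte cells 3 cells held 71.8%, and the ratio without them was -0.45. In mesenchymal cells the share was 25.4% and the ratio without them -0.01.

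**Figure D5:**
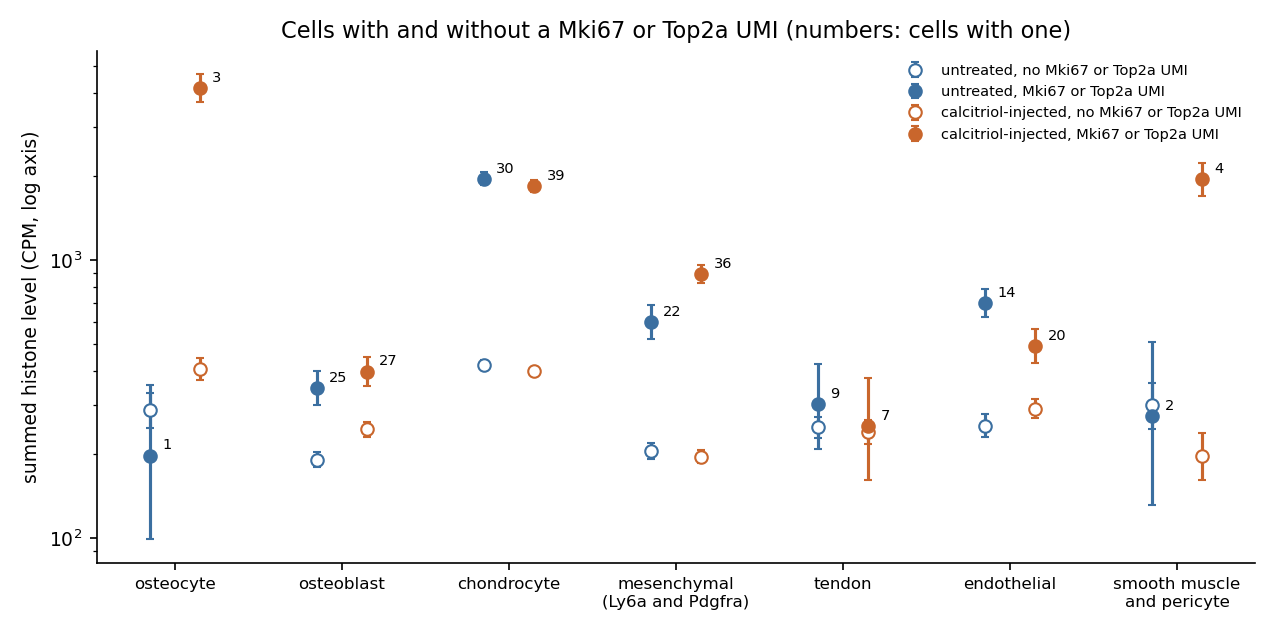
Summed histone level in CPM, on a log axis, in each class, for cells with (filled) and without (open) a UMI of Mki67 or Top2a, in the untreated (blue) and the calcitriol-injected library (orange). Bars are exact 95% Poisson intervals, numbers give the cells with such a UMI (1 and 3 for osteocyte cells), and the open points lie between 191.3 and 419.2 CPM in all classes while the filled ones reach 4159 CPM.

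In cells with no UMI of *Mki67* or *Top2a* the spread between classes was smaller. The ratio was then 0.49 (0.24 to 0.74) in osteocyte, 0.36 (0.24 to 0.49) in osteoblast, -0.07 (-0.14 to 0.01) in chondrocyte, -0.07 (-0.19 to 0.05) in mesenchymal, -0.05 (-0.25 to 0.14) in tendon, 0.20 (0.02 to 0.38) in endothelial and -0.60 (-1.0 to -0.21) in smooth muscle and pericyte cells. The lower chondrocyte level was thus not seen in cells without a reference UMI. Cells that held one were 30 of 304 untreated (9.87%) and 39 of 815 calcitriol chondrocyte cells (4.79%). These cells had 1960 CPM (1859 to 2066) and 1841 CPM (1750 to 1935) of histone mRNA. Few of them set these levels, since 3 cells held 55.0% and 64.5% of the histone UMIs. The median cell held 10.5 and 5.

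*Hist1h2ap* and *Hist1h1b* stood at the ends of the ratios in most classes. The ends are the 3 largest and 3 smallest ratios among members with at least 20 UMIs in the class. Such members numbered 25 in chondrocyte, 21 in mesenchymal, 13 in osteoblast, 12 in endothelial, 8 in osteocyte and 6 in smooth muscle and pericyte cells. In smooth muscle and pericyte cells every such member thus stood at an end, and in osteocyte cells most did. *Hist1h2ap* was among the 3 members with the largest ratio in osteocyte (69.3 against 4.29 CPM), osteoblast (14.1 against 2.16 CPM), mesenchymal (22.8 against 9.01 CPM), endothelial (25.4 against 9.89 CPM) and smooth muscle and pericyte cells (42.0 against 2.42 CPM). It was found in 38 of 247 calcitriol and 8 of 309 untreated osteoblast cells (15.4% and 2.59%), so that in this class it was spread over many cells. In smooth muscle and pericyte cells its 27 calcitriol UMIs came from 1 cell. In chondrocyte cells *Hist1h2ap* had 26.2 against 30.2 CPM, with an interval that includes both directions (-0.21, -0.47 to 0.07). It was found there in 60 of 815 calcitriol and 17 of 304 untreated cells (7.36% and 5.59%).

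*Hist1h1b* was lower in the calcitriol library in chondrocyte (26.1 against 76.4 CPM, -1.55, -1.75 to -1.34), osteoblast (1.59 against 7.01 CPM, -2.14, -3.45 to -1.02) and endothelial cells (6.75 against 15.1 CPM, -1.16, -2.10 to -0.27). It was higher in mesenchymal (12.5 against 5.24 CPM, 1.26, 0.62 to 1.95) and osteocyte cells (84.0 against 8.58 CPM), where 2 of 80 calcitriol cells (2.5%) held its 109 UMIs. In the untreated library 3 of 36 osteocyte cells (8.33%) held its 6 UMIs. Few cells set these ratios. Of chondrocyte cells, 18 of 304 untreated and 21 of 815 calcitriol cells held *Hist1h1b*. In osteoblast cells it was 7 of 309 and 6 of 247, in endothelial cells 7 of 164 and 3 of 188, and in mesenchymal cells 5 of 397 and 6 of 580. In osteocyte, osteoblast and mesenchymal cells the share of cells with *Hist1h1b* thus did not follow its ratio. In smooth muscle and pericyte cells it had 55 UMIs in 3 calcitriol cells and 0 in the untreated library, which is at least 11.8-fold higher against a floor of 3 counts per library. As a share of cells this was 3 of 56 (5.36%) against 0 of 36, which allows up to 9.74%. In osteocyte cells *Hist1h2ae* had 41 UMIs against 0, at least 7.37-fold higher by the same floor. These came from 7 of 80 calcitriol cells (8.75%, 3.59 to 17.2), and 0 of 36 untreated cells allows up to 9.74%. The shares of cells thus do not set the libraries apart for either gene. Neither library had a UMI of *Hist1h1b* in tendon cells (0 of 178 and 0 of 152, which allow shares of up to 2.05% and 2.40%).

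*Hist1h2bc* and *Hist1h1c*, which led the class cells, moved differently between the classes. *Hist1h2bc* was lower in smooth muscle and pericyte (56.0 against 150.2 CPM, -1.42, -2.06 to -0.81), tendon (86.9 against 140.4 CPM, -0.69, -0.98 to -0.40), mesenchymal (74.0 against 101.0 CPM, -0.45, -0.62 to -0.27) and chondrocyte cells (148.9 against 186.4 CPM, -0.32, -0.43 to -0.22). In osteoblast cells it was even, with 101.2 against 95.02 CPM (0.09, -0.09 to 0.27). *Hist1h1c*, in contrast, was higher in osteoblast (56.4 against 23.5 CPM, 1.26, 0.96 to 1.57) and tendon cells (60.3 against 36.2 CPM, 0.74, 0.30 to 1.18), and its largest levels were those of chondrocyte cells (140.8 and 128.7 CPM). *Hist1h1e* was lower in chondrocyte cells (54.1 against 98.9 CPM, -0.87, -1.03 to -0.71).

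The pathway around the histone genes was followed by fixed lists. Of the list for the processing of histone mRNA, which holds *Slbp* and the machinery that cuts the transcript, 12 of 13 genes were in the files. Their sum fell with the haemoglobin share from 1237 CPM at 10 to 25% over 985.1 at 25 to 50% and 348.0 at 50 to 75% to 21.95 at 75 to 90% in the untreated library. All 8 genes of that list with at least 100 UMIs were highest at 10 to 25%, as were 24 of 26 genes of DNA replication (*Slbp* is in both lists), among them *Pcna*, the clamp of the replication fork, with 884.1, 554.7 and 123.7 CPM at 10 to 25%, 25 to 50% and 50 to 75%. Of all genes in these untreated bins, 67.2% were highest at 10 to 25%. In the calcitriol library only 1 gene of the processing list had enough UMIs, and the replication list was split, with 3 of 7 genes highest at 10 to 25% and 4 at 25 to 50%. Of all 1376 genes in the calcitriol bins, 673 were highest at 10 to 25% and 427 at 25 to 50%. Of the genes of G2 and mitosis, 12 of 20 were highest at 25 to 50% in the untreated library and 10 of 17 in the calcitriol library, while 5 of the 20, such as *Ube2c*, a ubiquitin-conjugating enzyme of mitotic exit, were highest at 50 to 75%. With haemoglobin left out of the totals, 4 of the 8 processing genes and 17 of the 26 replication genes were highest at 10 to 25% in the untreated library, against 34.6% of all genes, and 19 of the 20 genes of G2 and mitosis were highest at 50 to 75%. *Slbp* itself had 641.3, 566.5 and 170.2 CPM of all UMIs at 10 to 25%, 25 to 50% and 50 to 75%.

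In the set with a haemoglobin share of 25 to 75% and at least 1000 genes, the lists were lower in the calcitriol library while the histone total was not. The median log2 ratio was -0.33 for 9 genes of histone mRNA processing, -0.40 for 11 histone chaperones, -0.60 for 27 genes of DNA replication, -0.40 for 20 genes of G2 and mitosis and -0.10 for 9 genes listed as histone variants made outside replication. At least 2-fold lower were 1, 0, 4, 1 and 0 of these genes, and at least 2-fold higher 0, 0, 0, 0 and 1. Of all 7163 genes tested in this set, 3.67% were at least 2-fold lower and 19.9% at least 2-fold higher, with a median log2 ratio of 0.17. *Slbp* had 192.0 against 305.3 CPM, *Rrm2*, a subunit of ribonucleotide reductase, 317.0 against 542.6 CPM, and *H3f3a*, a gene of the variant H3.3, 4401 against 6521 CPM.

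Barcodes of 1 joint bin were compared with one another. In the 516 untreated barcodes with a haemoglobin share of 50 to 75% and 1000 to under 2000 genes, the Spearman correlation with the summed S-phase list was 0.62, with *Slbp* 0.49, with *Top2a* 0.51 and with *Mki67* 0.35. With the list of G2 and mitosis, *Mki67* and *Top2a* left out, it was -0.01 in the untreated library and 0.52 in the 41 calcitriol barcodes. With *Ccnb1*, the cyclin of mitotic entry, the untreated value was -0.24, and with the total UMIs of the barcode -0.42. The calcitriol barcodes gave 0.64 for the S-phase list, 0.45 for *Slbp*, 0.75 for *Top2a*, 0.51 for *Mki67*, 0.15 for *Ccnb1* and 0.11 for the total UMIs. All points of a correlation share 1 library and their depth, so these values are a description.

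The genes outside the lists whose level was most like that of the summed members, over 13 joint bins of at least 50 erythroid barcodes (9 of them untreated), were *Rock1*, *Chmp3*, *Tmem183a*, *Cnot4* and *Gypc*, with Pearson correlations of log2(CPM + 10) from 0.995 to 0.991. For *Mki67* the value was 0.987 and for *Top2a* 0.840. The bins differ mostly in haemoglobin share, and many genes that fall with it reach high values.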

How the data were processed

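Per the labels, libraries were made with the Chromium Next GEM Single Cell 3′ kit v3.1, and the submitters' processing notes name Cell Ranger 4.0.0, Seurat 3.2.2 and mm10. The deposited matrices held whole counts of UMIs per gene and barcode, filtered for cell-containing barcodes by the authors and otherwise not normalized. The members and lists were chosen with earlier results of these data known, and the marker gates were set after the marker counts had been seen.

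Counts of the 67 members were summed over the barcodes of each class and divided by their total UMIs. Erythroid barcodes had a haemoglobin share of at least 10% or at least 4 of 10 early markers. Other barcodes needed 200 genes and UMIs of at least 3 of 5 osteocyte, 6 of 11 osteoblast, 9 of 13 chondrocyte, 6 of 8 mesenchymal, 5 of 7 tendon, 6 of 10 endothelial or 5 of 8 smooth muscle and pericyte markers. Barcodes that met 2 gates were left out, except that cells meeting the osteocyte and osteoblast gates counted as osteocyte, a departure from the plan. Doublets were scored with Scrublet (scanpy 1.11.5), whose automatic threshold found too few, so that the top 0.8% per 1000 barcodes were marked, and they were kept except in 1 alternative. A ratio needed at least 20 UMIs, and 2-fold was the size named.

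Named were the 12 members with the most UMIs in erythroid barcodes, the 8 with the most in class cells, the 3 largest and 3 smallest ratios between libraries in erythroid barcodes and in each class and between erythroid barcodes and classes, *Mki67* and *Top2a*, 4 genes with the most UMIs per list, and the 5 genes most like the summed members by Pearson's r of log2(CPM + 10). Other members were named after their values were seen. Stem-loops and shared windows of 90 bases were read from GENCODE M21 transcripts, which may differ from the annotation the authors counted on. Alternatives were thinning to 2000 UMIs, totals without haemoglobin and mitochondrial genes, means over barcodes, members left out, clusters rebuilt with Seurat 5.3.0 (24 clusters), doublets left out and, chosen after seeing the data, the highest bin of each gene with totals without haemoglobin. The scripts were tested on simulated data and ran in Python 3.11.15, numpy 2.4.6, scipy 1.17.1 and R 4.3.3.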

Additional observations from a re-analysis of the deposited data

Results flagged for a closer look

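The summed histone level was lower in the calcitriol library in erythroid barcodes (log2 ratio -0.91) and higher in the skeletal and vascular cells together (0.15). Of the classes, osteocyte (1.10), osteoblast (0.36), mesenchymal (0.18) and smooth muscle and pericyte cells (0.75) had the opposite sign to erythroid barcodes. Chondrocyte cells (-0.38) were lower while osteocyte and osteoblast cells were higher. These values depended on which barcodes were compared. In erythroid barcodes with a haemoglobin share of 25 to 75% and at least 1000 genes the ratio was 0.04. With rebuilt clusters the pooled class ratio changed sign. That ratio also compares different mixes of classes, with 304 of 1424 untreated and 815 of 2118 calcitriol class cells called chondrocyte. Without the cells richest in histone UMIs the osteocyte ratio shrank, and the mesenchymal and the smooth muscle and pericyte ratios changed sign. In cells with no reference UMI, osteocyte and osteoblast cells stayed higher (0.49 and 0.36), and mesenchymal (-0.07) and smooth muscle and pericyte cells (-0.60) did not. There the median osteocyte cell held 4 histone UMIs in the untreated and 3 in the calcitriol library, and 3 of 77 calcitriol cells held 34.1%. With 1 library per group, none of these differences was tested.

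Barcodes that entered no comparison also held histone mRNA. Barcodes with no class had 421.0 CPM (untreated) and 343.5 CPM (calcitriol), and those that met the chondrocyte and osteoblast gates together had 634.8 and 556.4 CPM. Other pairs of classes had 316.1 and 367.9 CPM. Barcodes that met the erythroid and another gate had 1534 and 954.9 CPM, levels between those of erythroid and class cells. Barcodes under 200 genes that were not erythroid had 171.7 and 48.1 CPM.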

How the results depend on the processing

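No paired analysis was possible because each group is 1 library and no test was made. Values are given in the order thinned to 2000 UMIs, totals without haemoglobin and mitochondrial genes, mean over barcodes, without the member with the most UMIs, members with a stem-loop match, members with at most 50% shared windows, and without the 3 barcodes richest in histone UMIs; the last 2 were chosen after seeing the data. The level in erythroid barcodes was 4059, 19270, 4207, 3566, 3053, 3723 and 4377 CPM in the untreated library and 1981, 14420, 2521, 2080, 1820, 1682 and 2100 CPM in the calcitriol library. In the skeletal and vascular cells it was 287.6, 355.0, 295.5, 317.6, 184.9, 320.7 and 307.4 CPM in the untreated and 320.5, 392.8, 317.2, 359.6, 238.7, 340.5 and 348.1 CPM in the calcitriol library. The erythroid log2 ratio was -1.03, -0.42, -0.74, -0.78, -0.75, -1.15 and -1.06, and -1.20 with erythroid barcodes taken at a haemoglobin share of at least 50% alone. Within haemoglobin bins from under 10% to 90% or more it was 1.96, -0.29, 0.06, -0.58, -0.36 and 0.24, within gene bins from under 200 on -0.02, -0.83, 0.26, 0.33 and -0.50, and in the set of 25 to 75% with at least 1000 genes 0.04. The pooled class ratio was 0.10 as a mean over cells, 0.37 over members with a stem-loop match, 0.27 without doublets and -0.05 with clusters. The mesenchymal ratio was -0.05 when thinned, -0.01 without the 3 richest barcodes and -0.04 without doublets, and the smooth muscle and pericyte ratio was -0.33 as a mean over cells, -0.45 without the 3 richest barcodes and -0.01 with clusters. The ratio of a haemoglobin share of 90% or more over 10 to 75% was -5.01 without haemoglobin and mitochondrial genes, -8.11 without the member with the most UMIs and -8.66 over members with a stem-loop match in the untreated library, and -4.71 and -8.12 for the first and last of these in the calcitriol library. The share of erythroid barcodes with at least 2 histone UMIs was 54.9% and 34.9%, and of barcodes with 1 after thinning 49.8% and 31.4%; of class cells it was 60.4% and 65.4%, and 34.5% and 37.6%. With totals without haemoglobin, an alternative chosen after seeing the data, 12 instead of 41 untreated members were highest at a haemoglobin share of 25 to 50% and 38 instead of 5 at 50 to 75%. Of the other values per class and the detection shares per erythroid bin, 85 stayed within their interval, 129 left it, and 6 changed sign. A change of sign was counted only for ratios whose interval did not span even. The cause of these changes was not tested. Depth limits the small classes, where a member often had fewer than 20 UMIs, and the 72 calcitriol barcodes of the like set.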

Other observations

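The part that linker histone genes took of the histone UMIs differed by stage. At a haemoglobin share of 75 to 90%, among barcodes with at least 20 histone UMIs, *Hist1h1e* held a median of 25.8% of a barcode's histone UMIs in 163 untreated and 25.9% in 23 calcitriol barcodes, and *Hist1h1c* held 17.9% and 12.5%. In the younger set (a share of 25 to 75% with at least 1000 genes) the medians for *Hist1h1e* were 11.98% and 3.85%. The difference between the libraries in the *Hist1h1e* share was thus seen in the younger set and not in the median of the later bin, where the calcitriol library had 23 such barcodes.

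The sum of 11 genes listed as histone variants made outside replication, among them *H3f3a*, went with the replication-dependent histone share of single barcodes (Spearman correlation 0.69 in 516 untreated and 0.82 in 41 calcitriol barcodes with a share of 50 to 75% and 1000 to under 2000 genes). The list is not free of cell-cycle genes, since *Cenpa* is also in the list of G2 and mitosis. *H2afx*, another of its genes, had 747.0 CPM in the younger untreated set and 36.88 CPM in untreated class cells. These points share a library, and the value is a description.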
